A study of Homo sapiens with 16 samples.

Results

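RBM39, its paralogue RBM23 and the subunits of the DCAF15 ubiquitin ligase were followed at the mRNA level. The 8 genes were RBM39, RBM23, DCAF15, DDB1, DDA1, CUL4A, CUL4B and RBX1, taken by name from 58676 gene identifiers in the count files, and all 8 passed the filter on low counts in both cell lines. A549 cells come from a human lung adenocarcinoma and SUM159 cells from a triple-negative breast carcinoma. Cultures of both received nothing, palbociclib at 2 µM, indisulam at 3 µM, or both drugs at these doses (the combination) over 16 h, and each of the 8 groups held 2 libraries of poly(A) RNA. The study calls these duplicates technical, so p-values measure only the spread between these libraries and not between independent cultures. The lines were grown in different media, and cell line and medium cannot be told apart.

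Indisulam is an aryl sulfonamide that acts as a molecular glue. It fills a groove of DCAF15 and thereby lets this substrate receptor bind a splicing factor it would otherwise leave alone. The bound factor is then ubiquitinated and destroyed by the proteasome. RBM39, which helps select splice sites, is the main protein lost in this way, and RBM23 is destroyed by the same route because it shares the second RNA recognition motif (RRM2), the domain that the glue presents. DCAF15 hangs on the adaptor DDB1, with the small subunit DDA1 stabilising the assembly. DDB1 docks on a cullin scaffold, CUL4A or CUL4B, whose other end holds RBX1, the RING protein that recruits the ubiquitin-charged enzyme. Palbociclib inhibits the kinases CDK4 and CDK6. The libraries measure mRNA, and protein loss was not measured here.

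The similarity of both substrates is shown by the coding sequence at the start of RRM2, because it bears on whether reads of 1 gene could be counted for the other. The sequences are 120 bases long, read 5′ to 3′ on the coding strand from GRCh38, with capitals at the bases that differ between both genes. The RBM39 stretch lies in exons 9 and 10 of the MANE Select transcript, at chr20:35721740-35721814 and chr20:35716761-35716805 on the minus strand. The RBM23 stretch lies in exons 9 and 10, at chr14:22904875-22904949 and chr14:22904282-22904326, also on the minus strand.
RBM39: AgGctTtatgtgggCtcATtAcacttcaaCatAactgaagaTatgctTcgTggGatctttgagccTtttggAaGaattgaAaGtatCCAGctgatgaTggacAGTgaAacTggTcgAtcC
RBM23: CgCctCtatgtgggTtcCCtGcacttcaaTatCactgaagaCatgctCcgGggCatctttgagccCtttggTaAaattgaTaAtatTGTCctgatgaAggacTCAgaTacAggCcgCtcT
Of the 120 positions 89 were identical and 31 differed, and 22 of the 31 fell at the third base of a codon. Over their whole coding sequences RBM39 and RBM23 shared 68.1% of 1250 aligned bases, and CUL4A and CUL4B shared 73.4% of 2274. The longest run shared by the RBM39 and RBM23 transcripts was 31 bases, and none of the 4986 windows of 75 bases (the read length) in RBM39 occurred in RBM23. For CUL4A and CUL4B the longest shared run was 38 bases and none of 5747 windows was shared. The processed pseudogene RBM39P1 held 59 of the RBM39 windows (1.18%) and received between 4 and 28 counts per library, beside 3160 to 13495 for RBM39.

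RBM39 lies at chr20:35701347-35742312 (minus strand, GRCh38) and RBM23 at chr14:22893204-22919182 (minus). DCAF15 and DDA1 are both on chromosome 19, at chr19:13952509-13961449 and chr19:17309518-17323298 (both plus). DDB1 lies at chr11:61299451-61342596 (minus), CUL4A at chr13:113208193-113267108 (plus), CUL4B at chrX:120505920-120604074 (minus) and RBX1 at chr22:40951347-40973309 (plus). RBM39 and RBX1 overlap no other annotated gene. The other genes share bases with a gene on the opposite strand (RBM23 with PRMT5-AS1, DCAF15 with PODNL1, DDB1 with TKFC, DDA1 with ABHD8 and ANO8, CUL4A with PCID2, CUL4B with MCTS1), and CUL4A also holds the microRNA gene MIR8075 on its own strand. The strand setting of the counting is not given in the sources used here, so counts of these 6 genes are uncertain where they overlap. The annotation lists 47 RBM39 transcripts, of which 8 are protein coding, 16 are marked for nonsense-mediated decay and 16 retain an intron. For RBM23 it lists 33 transcripts, of which 19 are protein coding, none is marked for decay and 8 retain an intron. Gene counts sum over such transcripts and do not resolve them.

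Total gene counts ran from 18306636 to 34075588 per library, and the 8 genes were each covered by 256 counts (DCAF15) or more in every library. In A549 the keratins KRT8 (4980 to 7188 CPM, that is scaled counts) and KRT18 (4227 to 7040) were abundant. In SUM159 KRT8 was at 504 to 788 CPM and KRT18 at 324 to 426. KRT7, also listed for A549, was at 1212.5 to 1606.6 CPM there but at 1463.8 to 3180.8 in SUM159. The lung markers NKX2-1 and SFTPB were at or near 0 in A549 (at most 0.443 and 0 CPM). SUM159 held VIM at 2729 to 3899 CPM, with ESR1 at most 0.792 and PGR at most 0.0379 CPM, but ERBB2 at 92.6 to 144 CPM. The leukocyte gene PTPRC (2.88 to 4.52 CPM) and the endothelial gene PECAM1 (16.5 to 38.5 CPM) were also read in SUM159, and DES, a muscle gene, reached at most 0.557 CPM. The share of reads in no annotated feature was 4.02% to 4.57% in untreated and 5.70% to 5.97% in indisulam-treated A549, and 3.89% to 3.99% against 5.70% to 6.08% in SUM159. The part of these in the changes below was not tested.

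Indisulam raised the mRNA of both of its substrates in both lines. RBM39 stood at 173 and 178 CPM in the untreated A549 libraries and at 367 and 362 CPM with indisulam. In SUM159 it stood at 230 and 224 CPM without and at 486 and 479 CPM with the drug, so both indisulam libraries lay far above both untreated ones in each line. The log2 change was 1.06 in A549 (SE 0.0407, 95% interval 0.97 to 1.14, adjusted p = 1.51e-10) and 1.09 in SUM159 (SE 0.0364, interval 1.01 to 1.17, adjusted p = 3.66e-12), by edgeR's quasi-likelihood test with Benjamini-Hochberg adjustment over all genes. Ordered by log2 change, RBM39 was gene 551 of 15744 tested in A549 and gene 672 of 16080 in SUM159. In RNA from whole cultures a change in the RNA of each cell and a change in the make-up of the culture cannot be told apart.

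RBM23 rose less than RBM39. It was read at 105 and 106 CPM in untreated A549 and at 147 and 144 CPM with indisulam. The SUM159 values were 62.4 and 62.9 CPM untreated and 82.6 and 82.8 CPM with indisulam. Again the groups did not overlap in either line, and the share of all genes without such overlap was not computed. Its log2 change of 0.46 (SE 0.0432, adjusted p = 8.32e-07) for A549 and 0.40 (SE 0.0454, adjusted p = 1.86e-06) for SUM159 passed in both.

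DCAF15, the receptor that indisulam binds, did not pass the test with indisulam in either line. Its level was low, at 19.8 and 16.7 CPM in untreated A549 and 21.4 and 22.2 CPM with indisulam, where the drug-treated libraries were the higher ones. The log2 change there was 0.25 (95% interval −0.0005 to 0.50, adjusted p = 0.0913). That value passed the threshold under other settings, among them a fit of both groups alone (0.25, adjusted p = 0.0157) and one without a filter on low genes (0.24, adjusted p = 0.0344), so it sits at the edge of the call. SUM159 libraries overlapped, with 30.1 and 28.4 CPM untreated and 30.4 and 29.8 CPM with indisulam, and the log2 change was 0.04 (interval −0.10 to 0.18, adjusted p = 0.654).

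The remaining ligase subunits moved by less than RBM39, in both directions. DDB1, the adaptor, fell from 438 and 431 CPM to 377 and 382 CPM in A549 and from 482 and 490 CPM to 409 and 425 CPM in SUM159. Its log2 change was −0.19 (SE 0.0385, adjusted p = 0.000776) in A549 and −0.22 (SE 0.035, adjusted p = 7.03e-05) in SUM159, and the libraries did not overlap. DDA1 was higher with indisulam, at 53.2 and 54.7 CPM against 48.2 and 47.7 CPM untreated in A549 and at 50.1 and 51.6 CPM against 46.9 and 45.0 CPM in SUM159. Its log2 changes of 0.17 (adjusted p = 0.0263) and 0.15 (adjusted p = 0.0275) were called on thin ground. The A549 call was lost when any 1 of the 4 untreated and indisulam libraries was left out (adjusted p up to 0.13), and the SUM159 call without either indisulam library or without untreated replicate 2 (0.11 to 0.17, adjusted p up to 0.19).

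The 2 cullins moved in opposite directions. CUL4A was lower with indisulam, at 96.2 and 99.8 CPM against 106 and 110 CPM untreated in A549 and at 145 and 141 CPM against 172 and 176 CPM in SUM159. Its log2 change was −0.14 in A549 (adjusted p = 0.0268), a call lost when any 1 of the 4 libraries was left out (−0.16 to −0.11, adjusted p up to 0.19), and −0.29 in SUM159 (SE 0.0384, adjusted p = 1.16e-05). CUL4B was higher, at 130 and 129 CPM against 102 and 103 CPM in A549 and at 280 and 274 CPM against 232 and 235 CPM in SUM159. The log2 change of CUL4B was 0.34 (SE 0.0455, adjusted p = 2.55e-05) in A549 and 0.25 (SE 0.0383, adjusted p = 5.66e-05) in SUM159.

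RBX1, the RING subunit, was read at 29.8 and 28.7 CPM in untreated A549 and at 33.3 and 35.3 CPM after indisulam, and its log2 change was 0.23 (SE 0.0642, adjusted p = 0.00875). The call was lost without indisulam replicate 2 (0.19, adjusted p = 0.076) or untreated replicate 2 (0.21, adjusted p = 0.06). SUM159 untreated libraries were at 40.2 and 40.1 CPM and the indisulam libraries at 40.0 and 36.0 CPM, and the log2 change of −0.08 did not pass (interval −0.22 to 0.05, adjusted p = 0.302). With indisulam 7 of the 8 genes were thus called in A549 (5 higher, 2 lower) and 6 in SUM159 (4 higher, 2 lower). Calls were common among all genes too, at 49.2% of those tested in A549 (23.3% higher, 25.9% lower) and 46.9% in SUM159 (21.9% higher, 24.9% lower). The counts for the 8 genes were not tested against these shares. In A549 4 of the 8 genes were called when indisulam replicate 2 or untreated replicate 2 was left out, and 4 with DESeq2, which did not call RBX1 (0.22, adjusted p = 0.07), CUL4A or DDA1.

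**Figure D1:**
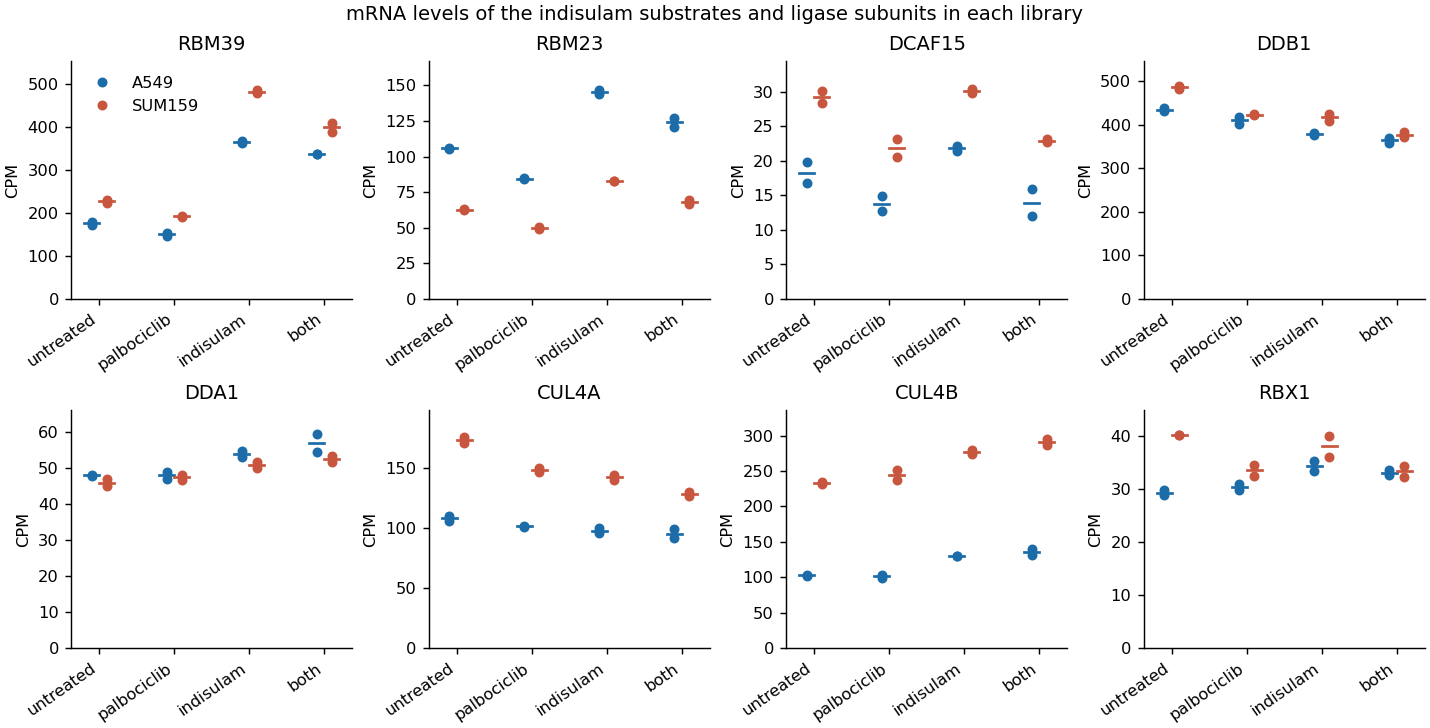
Level of each of the 8 mRNAs in CPM (vertical axis, from 0) in every library of A549 (blue) and SUM159 (red), by treatment (horizontal axis). Points are the 2 libraries of a group and bars their mean. RBM39 sits between 362 and 486 CPM in the 4 libraries given indisulam alone, against at most 230 CPM in the 4 untreated ones, and DCAF15 stays at or below 30.4 CPM in every library.

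Palbociclib alone lowered both substrates and the receptor. RBM39 was at 154 and 146 CPM in A549 and at 193 and 191 CPM in SUM159, below the untreated libraries of each line. The log2 change was −0.23 (SE 0.0414, adjusted p = 0.000461) in A549 and −0.24 (SE 0.0369, adjusted p = 3.3e-05) in SUM159. RBM23 was at 84.4 and 84.7 CPM in A549 and at 49.0 and 50.4 CPM in SUM159, with log2 changes of −0.32 (adjusted p = 3.86e-05) and −0.33 (adjusted p = 1.21e-05). DCAF15 was at 14.9 and 12.7 CPM in A549 and at 20.5 and 23.1 CPM in SUM159, with log2 changes of −0.43 (SE 0.123, adjusted p = 0.0118) and −0.42 (SE 0.0685, adjusted p = 6.34e-05). The A549 call for DCAF15 was lost without palbociclib replicate 2 or untreated replicate 1 (−0.30 and adjusted p = 0.16 in each).

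With palbociclib DDB1, CUL4A and RBX1 passed the test in SUM159 and not in A549. On a scaling shared by all 16 libraries, the difference between the lines did not pass for DDB1 (−0.02, interval −0.13 to 0.09, adjusted p = 0.88). Nor did it pass for CUL4A (−0.04, interval −0.17 to 0.09, adjusted p = 0.767) or RBX1 (−0.22, interval −0.41 to −0.03, adjusted p = 0.123). It passed for RBX1 in 5 of 13 alternatives (−0.43 to −0.33), namely with at least 10 counts in every library and without A549 palbociclib replicate 1 or 2 or A549 untreated replicate 1 or 2. For CUL4A it passed without A549 palbociclib replicate 1 (−0.21, adjusted p = 0.0314) or A549 untreated replicate 2 (−0.23, adjusted p = 0.0385). DDB1 was at 403 and 418 CPM in A549 (log2 change −0.08, interval −0.16 to 0.0024, adjusted p = 0.109, but −0.10 and adjusted p = 0.0347 in the fit of all 16 libraries) and at 422 and 425 CPM in SUM159 (−0.20, adjusted p = 0.000129). CUL4A was at 102 and 101 CPM in A549 (−0.09, interval −0.20 to 0.01, adjusted p = 0.144) and at 150 and 147 CPM in SUM159 (−0.23, adjusted p = 7.15e-05). RBX1 was at 29.7 and 31.0 CPM in A549 (0.06, interval −0.08 to 0.19, adjusted p = 0.524) and at 34.5 and 32.5 CPM in SUM159 (−0.26, adjusted p = 0.00185). DDA1 and CUL4B did not pass in either line, with intervals of −0.12 to 0.13 and −0.12 to 0.08 in A549 and −0.06 to 0.16 and −0.02 to 0.15 in SUM159. Palbociclib thus gave 3 lower calls of 8 in A549 and 6 lower calls in SUM159, beside 43.2% of all genes tested in A549 (22.0% higher, 21.1% lower) and 54.5% in SUM159 (25.5% higher, 29.0% lower). Whether any of the 8 genes was higher in SUM159 depended on the setting. CUL4B was called higher with scaling by total counts (0.17, adjusted p = 0.00121), in the fit of all 16 libraries (0.14, adjusted p = 0.00592), with a minimum of 10 counts per library (0.10, adjusted p = 0.0275) and without palbociclib replicate 2 (0.11, adjusted p = 0.0281), and DDA1 with scaling by total counts (0.15, adjusted p = 0.0169).

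With the combination all 8 genes were called in both lines, with 5 higher and 3 lower in A549 and 4 higher and 4 lower in SUM159, beside 57.8% of all genes (27.4% higher, 30.4% lower) and 65.3% (32.2% higher, 33.1% lower). RBM39 was at 336 and 336 CPM in A549 and at 389 and 408 CPM in SUM159, between the untreated and the indisulam libraries but much nearer the latter. Its log2 change against untreated was 0.94 (SE 0.0408, adjusted p = 6.86e-11) and 0.81 (SE 0.0363, adjusted p = 3.49e-12). RBM23 was at 121 and 127 CPM in A549 and at 66.5 and 69.6 CPM in SUM159, with log2 changes of 0.23 (adjusted p = 0.000409) and 0.12 (adjusted p = 0.0331). The SUM159 call for RBM23 was lost without combination replicate 2 (0.08, adjusted p = 0.21) or without untreated replicate 1 or 2 (0.11 and 0.12, adjusted p 0.14 and 0.11). It was also lost with DESeq2 (0.12, adjusted p = 0.125) and without a filter on low genes (0.12, adjusted p = 0.106).

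DCAF15 was at 15.9 and 12 CPM in A549 and at 22.7 and 23.2 CPM in SUM159 with the combination, below the untreated libraries and close to palbociclib alone. The log2 change was −0.39 (SE 0.126, adjusted p = 0.0156) in A549 and −0.35 (SE 0.0685, adjusted p = 0.00024) in SUM159. In A549 the call was lost without combination replicate 2 (−0.22) or untreated replicate 1 (−0.26). Scaling by total counts lost it too (−0.30, adjusted p = 0.059).

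The other subunits kept the signs they had with indisulam in A549, where RBX1 was at 32.6 and 33.5 CPM (0.18, adjusted p = 0.0312). That RBX1 call was lost without combination replicate 2 (0.15) and without untreated replicate 1 (0.20) or 2 (0.15). It was also lost with DESeq2 (0.18, adjusted p = 0.133) and without a filter on low genes (0.17, adjusted p = 0.0968). In SUM159 RBX1 was at 32.3 and 34.3 CPM, below both untreated libraries (−0.27, SE 0.0631, adjusted p = 0.00121), a call lost with scaling by total counts (−0.12, adjusted p = 0.0956). DDB1 was at 358 and 370 CPM in A549 (−0.25, adjusted p = 5.36e-05) and at 372 and 384 CPM in SUM159 (−0.36, adjusted p = 8.55e-08), its lowest level in each line. CUL4A was at 91.8 and 99.2 CPM (−0.18, adjusted p = 0.00619) and at 127 and 130 CPM (−0.44, adjusted p = 2.82e-08). The CUL4A call in A549 was lost without combination replicate 1 (−0.12, adjusted p = 0.077) or untreated replicate 2 (−0.15, adjusted p = 0.058), and with scaling by total counts (−0.09, adjusted p = 0.125). CUL4B was at 132 and 139 CPM (0.40, adjusted p = 2.76e-06) and at 287 and 296 CPM (0.32, adjusted p = 1.24e-06), its highest level in each line. Against indisulam alone, CUL4B did not pass in A549 (0.06, adjusted p = 0.277) or SUM159 (0.07, adjusted p = 0.11). In that comparison DDB1 passed in SUM159 (−0.14, adjusted p = 0.00224) and not in A549 (−0.06, adjusted p = 0.243). DDA1 was at 59.4 and 54.5 CPM in A549 (0.25, adjusted p = 0.00217) and at 51.6 and 53.3 CPM in SUM159 (0.19, adjusted p = 0.00356). The DDA1 call in SUM159 was lost without untreated replicate 2 (0.16, adjusted p = 0.054).

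**Figure D2:**
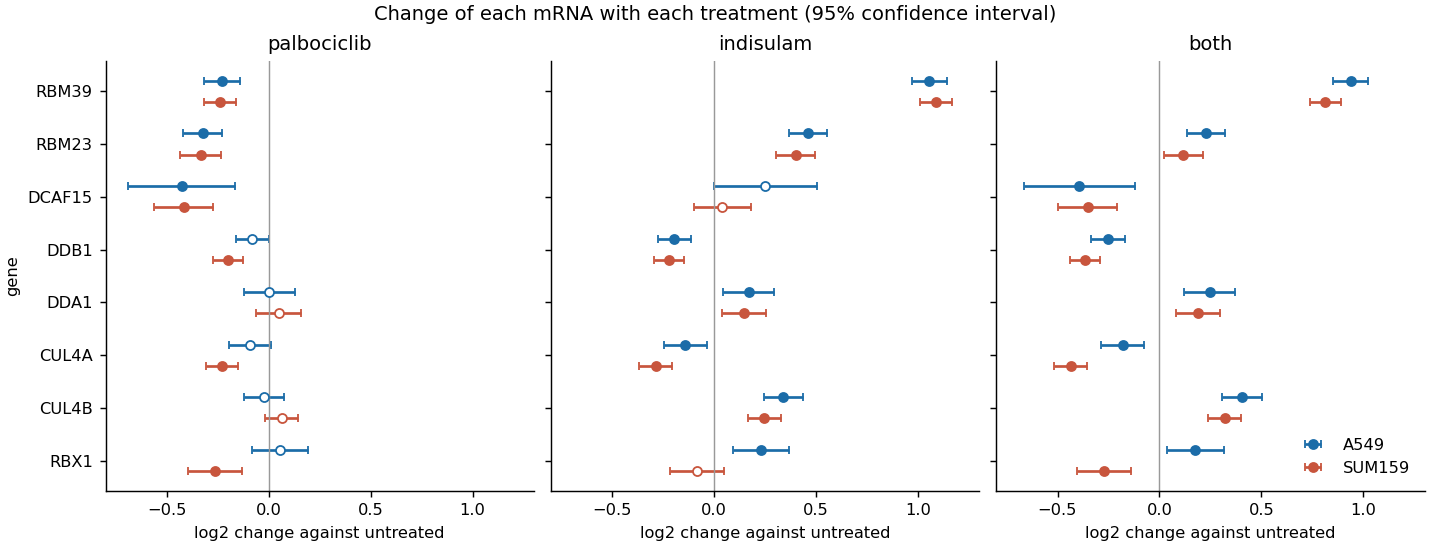
Log2 change of each of the 8 mRNAs against untreated cells (horizontal axis) with palbociclib, indisulam or both, in A549 (blue) and SUM159 (red), with 95% confidence intervals. Filled points have an adjusted p under 0.05 and open points do not. RBM39 lies between 0.81 and 1.09 in the 4 comparisons that involve indisulam and at −0.23 and −0.24 with palbociclib alone, and DCAF15 lies below 0 wherever palbociclib was given.

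Adding palbociclib to indisulam lowered RBM39, RBM23 and DCAF15 relative to indisulam alone. The fall of RBM39 was −0.27 on the log2 scale for SUM159 (adjusted p = 4.56e-06) and −0.12 for A549 (adjusted p = 0.0274). The A549 call was lost without any 1 of the 4 combination and indisulam libraries (−0.13 to −0.10, adjusted p up to 0.15), with DESeq2 (−0.11, adjusted p = 0.127) and with scaling by total counts (−0.06, adjusted p = 0.255). The fall of RBM23 was −0.23 (A549, adjusted p = 0.000584) and −0.28 (SUM159, adjusted p = 3.33e-05). That of DCAF15 was −0.64 (A549, adjusted p = 0.000676) and −0.39 (SUM159, adjusted p = 8.19e-05). These were the 3 calls of 8 in A549 (beside 38.8% of all genes, 18.6% higher and 20.1% lower), whereas SUM159 had 6 calls, all lower (beside 52.9%, 24.9% higher and 28.0% lower). The SUM159 call for RBX1 (−0.19, adjusted p = 0.0161) was lost without indisulam replicate 1 (−0.12) or combination replicate 1 (−0.14). It was also lost with DESeq2 (−0.18, adjusted p = 0.0832), and passed in 5 of 11 alternatives. With scaling by total counts the SUM159 calls for CUL4A (−0.05, adjusted p = 0.248), DDB1 (−0.05, adjusted p = 0.249) and RBX1 (−0.09, adjusted p = 0.208) were lost, while CUL4B (0.17, adjusted p = 0.0012) and DDA1 (0.14, adjusted p = 0.024) were called higher, so the 6 lower calls became 3 lower and 2 higher. CUL4B was also called higher there with a minimum of 10 counts per library (0.13, adjusted p = 0.00658) and in the fit of all 16 libraries (0.14, adjusted p = 0.00452).

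Adding indisulam to palbociclib raised RBM39 on the log2 scale by 1.17 (A549, adjusted p = 4.81e-11) and 1.05 (SUM159, adjusted p = 2.54e-12), and RBM23 by 0.55 (adjusted p = 1.22e-07) and 0.45 (adjusted p = 4.09e-07). DCAF15 did not pass in this comparison, at 0.03 (interval −0.23 to 0.30, adjusted p = 0.838) and 0.06 (interval −0.08 to 0.21, adjusted p = 0.454). In all 5 of 8 genes were called in A549, beside 51.5% of all genes (23.7% higher, 27.8% lower), and 6 in SUM159, beside 48.3% (23.4% higher, 24.9% lower). When the combination was set against the sum of both single-drug log2 changes, none of the 8 genes departed from the sum in either line at an adjusted p under 0.05, beside 3.53% of all genes in A549 (1.49% above the sum, 2.05% below) and 4.38% in SUM159 (2.22% above, 2.16% below). At an unadjusted p under 0.05 the number was also 0 in both lines, and DESeq2 called 0. For RBM39 the departure was 0.11 (interval −0.01 to 0.23, adjusted p = 0.326) in A549 and −0.04 (interval −0.14 to 0.07, adjusted p = 0.777) in SUM159. For RBM23 it was 0.09 (interval −0.04 to 0.22, adjusted p = 0.46) and 0.05 (interval −0.08 to 0.19, adjusted p = 0.739). In the direct comparison of indisulam with palbociclib 7 of 8 genes were called in A549 and 5 in SUM159, beside 62.0% (30.5% higher, 31.5% lower) and 62.2% (32.8% higher, 29.4% lower) of all genes, with DCAF15 higher with indisulam by 0.68 (adjusted p = 0.00015) and 0.46 (adjusted p = 1.11e-05).

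In both lines the levels of RBM39 and RBM23 ran in the order indisulam, combination, untreated, palbociclib, from high to low. All neighbours in that order were called in both lines for both genes, apart from the limits given above on RBM39 between indisulam and the combination in A549 and on RBM23 between the combination and untreated in SUM159. DCAF15 ran in the order indisulam, untreated, combination, palbociclib in both lines, where neither the first nor the last pair of neighbours was called. The highest group mean exceeded the lowest 2.43 times in A549 and 2.51 times in SUM159 for RBM39, 1.72 and 1.67 times for RBM23, and 1.58 and 1.38 times for DCAF15. Over the other 5 genes this ratio ran from 1.13 (CUL4A in A549) to 1.35 (CUL4A in SUM159).

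Per unit of transcript length (RPKM, the CPM divided by the transcript length in kilobases, on a scaling shared by all libraries), with the length of the MANE Select transcript, the adaptor was the most abundant of the 8 mRNAs and the receptor among the scarcest. DDB1 ran from 87.5 to 107 RPKM over the A549 libraries and from 87.1 to 109 RPKM in SUM159. DCAF15 ran from 5.52 to 10.1 RPKM in A549 and from 9.02 to 12.7 RPKM in SUM159. The DDB1 level was 11.8 and 13.7 times that of DCAF15 in the untreated A549 libraries and 8.52 and 9.18 times in those of SUM159. RBM39 ran from 29.4 to 75.2 RPKM in A549 and from 37.5 to 90.8 RPKM in SUM159. RPKM values depend on the transcript chosen for the length. With all annotated exons joined, untreated A549 DDB1 had a mean of 28.9 RPKM, DCAF15 6.42 RPKM and CUL4B 3.14 RPKM, the last below DCAF15. With those lengths RBM39 exceeded DDB1 in every group given indisulam, at means of 31.5 against 25.3 RPKM with indisulam and 29.1 against 24.4 RPKM with the combination in A549, and at 38.1 against 25.4 RPKM and 33.0 against 24.2 RPKM in SUM159.

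Because of the unequal rises, the balance between the paralogous substrates shifted. The ratio of RBM39 to RBM23 in RPKM was 3.24 and 3.32 in untreated A549 libraries, rose to 4.94 and 4.97 under indisulam, and stood at 5.48 and 5.23 under both drugs. In SUM159 it was 7.27 and 7.03 untreated, 11.6 and 11.4 under indisulam, then 11.6 and 11.6 under both. Palbociclib alone gave 3.60 and 3.41 in A549 and 7.81 and 7.49 in SUM159. The libraries with indisulam lay above all those without it in each line. The ratio of CUL4A to CUL4B went the other way, from 1.06 and 1.09 in untreated A549 to 0.751 and 0.784 under indisulam, then 0.707 and 0.723 under both drugs. In SUM159 it went from 0.752 and 0.763 untreated to 0.526 and 0.522 under indisulam, then 0.450 and 0.448 under both. Palbociclib alone also lowered the CUL4A to CUL4B ratio, to 1.00 and 1.04 in A549 and to 0.608 and 0.629 in SUM159. These libraries lay below the untreated ones in each line. The ratios are given as a description and were not tested. The size of each ratio, and which gene of a pair is the higher, depends on the transcript lengths used. Its relative change between groups does not. With all annotated exons joined, CUL4A had a mean of 14.3 RPKM against 3.14 for CUL4B in untreated A549. In indisulam-treated SUM159 the means were then 17.3 against 7.74 RPKM. The ratios share the library and its depth but not the scaling, which cancels.

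**Figure D3:**
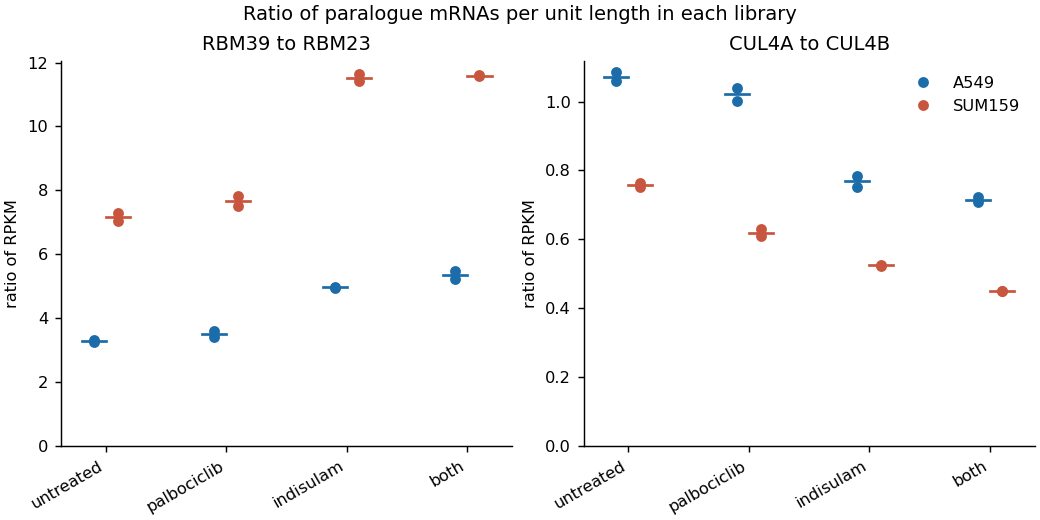
Ratio of RBM39 to RBM23 (left) and of CUL4A to CUL4B (right) in RPKM (vertical axes, from 0) in every library of A549 (blue) and SUM159 (red), by treatment. Points are libraries and bars the mean of 2. The size of each ratio depends on the transcript lengths used, here those of MANE Select. The mean RBM39 to RBM23 ratio was 3.28 in untreated and 4.95 in indisulam-treated A549 and 7.15 and 11.5 in SUM159, while the mean CUL4A to CUL4B ratio was 1.07 and 0.768 in A549 and 0.758 and 0.524 in SUM159.

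Before treatment the lines differed in 7 of the 8 genes, beside 76.3% of all genes (38.3% higher in SUM159, 38.0% lower). On the scaling shared by all libraries, RBM23 was at 109 and 110 CPM in A549 and at 58.7 and 59.6 CPM in SUM159, a log2 difference (SUM159 minus A549) of −0.89 (SE 0.0457, adjusted p = 5.5e-15). CUL4B was at 106 and 106 CPM in A549 and at 218 and 222 CPM in SUM159 (1.06, SE 0.0436, adjusted p = 5.82e-17). CUL4A (0.55, adjusted p = 3.98e-11), DCAF15 (0.55, adjusted p = 2.85e-05), RBX1 (0.32, adjusted p = 0.000126) and RBM39 (0.24, adjusted p = 7.72e-06) were also higher in SUM159. DDA1 was lower (−0.19, adjusted p = 0.00369), a call lost without untreated A549 replicate 1 (−0.10) or 2 (−0.13). DDB1 did not pass (0.03, interval −0.05 to 0.11, adjusted p = 0.464). With scaling by total counts DDB1 did pass (0.13, adjusted p = 0.0037), and without untreated A549 replicate 1 its difference was also 0.13.

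The response of RBM39 to indisulam did not differ between the lines beyond the spread of the libraries. The difference in log2 change (SUM159 minus A549) was 0.03 (interval −0.08 to 0.15, adjusted p = 0.772) for RBM39 and −0.06 (interval −0.19 to 0.07, adjusted p = 0.606) for RBM23. With palbociclib it was 0.09 for both genes (intervals −0.03 to 0.20 and −0.05 to 0.22, adjusted p 0.361 and 0.447). With the combination it was −0.06 for RBM39 (interval −0.17 to 0.06, adjusted p = 0.479) and −0.05 for RBM23 (interval −0.18 to 0.08, adjusted p = 0.646). The combination value for RBM39 was past the threshold, at −0.22 to −0.19, when A549 combination replicate 1 or 2 or A549 untreated replicate 1 or 2 was left out. That for RBM23 was past it, at −0.22 and −0.19, without A549 combination replicate 1 or untreated replicate 1. With all libraries kept and at least 10 counts in every library, the combination difference passed for both genes. It was −0.16 for RBM39 (edgeR adjusted p = 0.014) and −0.15 for RBM23 (adjusted p = 0.0383). On this scaling the median difference over all genes was itself 0.08 for palbociclib, 0.02 for indisulam, and 0.10 for both drugs. Against each line's own scaling, it shifted log2 changes with palbociclib by 0.0752 in SUM159 and −0.0217 in A549. With the combination the shifts were 0.0723 and 0.006. Line differences with these treatments therefore do not equal the gaps between the within-line changes given above.

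A difference in response was called for RBX1 with indisulam (−0.31, SE 0.0919, adjusted p = 0.024) and with the combination (−0.38, SE 0.0927, adjusted p = 0.00274), for CUL4A with the combination (−0.19, SE 0.0632, adjusted p = 0.0244) and for CUL4B with palbociclib (0.18, SE 0.0604, adjusted p = 0.0459), where CUL4B passed in neither line. On each line's own scaling CUL4B changed by −0.02 in A549 and 0.06 in SUM159, so part of its 0.18 came with the shared scaling. RBX1 was called higher with indisulam in A549 and did not pass in SUM159, and with the combination it was lower in SUM159 and higher in A549, each call with the limits given above. Of all genes 12.8% were called for palbociclib, 9.65% being higher and 3.15% lower, beside 1 of the 8 genes. For indisulam 15% were called (8.04% higher, 6.97% lower), beside 1 of 8, and for both drugs 30.9% (19.1% higher, 11.8% lower), beside 2 of 8. The RBX1 difference with indisulam was lost without A549 indisulam replicate 2 (−0.29), A549 untreated replicate 2 (−0.29), SUM159 indisulam replicate 2 (−0.23) or SUM159 untreated replicate 1 or 2 (−0.31 each), with adjusted p up to 0.14, and with DESeq2 (−0.32, adjusted p = 0.054). The CUL4A difference was lost without SUM159 combination replicate 1 (−0.18, adjusted p = 0.078) or SUM159 untreated replicate 2 (−0.17, adjusted p = 0.094). That of CUL4B was 0.01 to 0.03 without any 1 of the 4 A549 untreated and palbociclib libraries, and was also lost without SUM159 palbociclib replicate 1 (0.14) or SUM159 untreated replicate 1 or 2 (0.17 and 0.19). It passed in 1 of 13 alternatives, and was lost with DESeq2 (0.08, adjusted p = 0.492) and with a minimum of 10 counts per library (0.08, adjusted p = 0.326) among others.

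Cullin ligases are switched on by NEDD8, which the enzyme made of NAE1 and UBA3 activates, and are switched off by the COP9 signalosome, which removes NEDD8 again. Among 13 genes of the NEDD8 pathway and of cullin exchange, indisulam gave 2 higher and 2 lower in A549 and 1 higher and 8 lower in SUM159, with median log2 changes of −0.05 and −0.17 beside 0.01 over all genes in each line, of which 49.2% and 46.9% were called. The 8 lower in SUM159 ranged from 4 to 9 over 11 alternatives. NAE1 was the gene of this list that fell most, from 112 and 112 CPM to 70.7 and 73.4 CPM in A549 and from 144 and 142 CPM to 82.4 and 80.0 CPM in SUM159. The log2 change of NAE1 was −0.64 (adjusted p = 1.02e-07) and −0.82 (adjusted p = 6.98e-10), and with the combination it was −0.81 and −1.16. DCUN1D2, a NEDD8 ligase subunit, was the largest rise with indisulam at 0.43 and 0.51, but its A549 call was lost without indisulam replicate 1 (0.35, adjusted p = 0.068) and with DESeq2 (0.42, adjusted p = 0.0522).

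Of the 10 genes of the COP9 signalosome, indisulam gave 4 higher and 3 lower in A549 and 1 higher and 5 lower in SUM159 (medians 0.10 and −0.11). Of all genes 49.2% and 46.9% were called. The 3 lower of this list in A549 ranged from 1 to 3 over the alternatives. With the combination 9 of the 10 were lower and 1 higher in SUM159 (median −0.27), beside 4 lower and 3 higher in A549 (median near 0, at −0.0009), where 65.3% and 57.8% of all genes were called. Over the alternatives the lower count in SUM159 ranged from 6 to 9 and the higher from 0 to 1. The 1 higher gene there, COPS5 (0.15, adjusted p = 0.0132), was lost with DESeq2 (0.15, adjusted p = 0.0573) and without combination replicate 2 (0.13) or untreated replicate 1 (0.15) or 2 (0.14). COPS3 fell most in every comparison with untreated cells. It went from 118 and 121 CPM untreated to 59.1 and 59.9 CPM with the combination in A549 and from 140 and 143 CPM to 67.1 and 68.6 CPM in SUM159, log2 changes of −1.01 (adjusted p = 2.16e-10) and −1.06 (adjusted p = 3.66e-13). COPS5, the catalytic subunit, rose with indisulam by 0.52 (A549, adjusted p = 2.65e-06) and 0.20 (SUM159, adjusted p = 0.003).

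DCAF15 shares DDB1 with many other substrate receptors. Of all genes, indisulam gave 23.3% higher and 25.9% lower in A549 and 21.9% and 24.9% in SUM159. Of 23 such receptors measured, it gave 6 higher and 7 lower in A549 and 9 higher and 7 lower in SUM159 (medians −0.02 and 0.07). DCAF6 was the largest fall, from 98.5 and 98.3 CPM to 43.4 and 41.7 CPM in A549 and from 65.5 and 62.0 CPM to 39.2 and 41.6 CPM in SUM159. The log2 change of DCAF6 was −1.21 (adjusted p = 5.02e-10) and −0.66 (adjusted p = 7.22e-08). CRBN, the receptor used by thalidomide and its analogues, was the largest rise, from 21.5 and 21.4 CPM to 31.7 and 34.4 CPM in A549 (0.62, adjusted p = 4.25e-06) and from 18.2 and 16.8 CPM to 27.4 and 24.8 CPM in SUM159 (0.57, adjusted p = 9.47e-06). DTL, the receptor that clears licensing factors in S phase, fell most with palbociclib (−1.41 and −1.32) and with the combination. Its combination libraries were at 12.7 and 13.6 CPM in A549 and at 24.0 and 27.0 CPM in SUM159, against 97.5 and 91.9 CPM and 104 and 106 CPM untreated, log2 changes of −2.84 (adjusted p = 6.01e-14) and −2.04 (adjusted p = 3e-15).

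For the 7 ubiquitin-conjugating partners of CUL4 ligases (E2 enzymes and ARIH1), palbociclib gave 3 lower in A549 and 7 lower in SUM159 (medians −0.08 and −0.27), beside 43.2% and 54.5% of all genes called. Over the alternatives the lower count ranged from 2 to 4 and from 4 to 7, and up to 1 gene was called higher in A549. UBE2D2 fell most in each line with palbociclib (−0.31 and −0.39), as it did under indisulam (−0.24 and −0.23) and under both drugs (−0.53 and −0.61). Of the 6 other cullins and RNF7 (RBX2), indisulam gave 4 higher and 2 lower in A549, beside 49.2% of all genes called. In SUM159 it gave 2 higher (1 to 4 over the alternatives) and 1 lower, beside 46.9%. CUL7 rose with palbociclib by 0.74 (A549, adjusted p = 2.65e-06) and 0.95 (SUM159, adjusted p = 5.5e-11). CUL1, the scaffold of the SCF ligases, fell with the combination by 0.66 (adjusted p = 9.14e-09) and 0.52 (adjusted p = 6.43e-09).

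RBM39 belongs to splicing factors with a U2AF homology motif, a domain through which such proteins bind SF3B1, SF1 and each other. Of 7 genes of such factors and their ligands, indisulam gave 5 higher and 1 lower in A549 and 3 higher and 1 lower in SUM159 (medians 0.23 and 0.12). Palbociclib gave 4 and 6 lower (medians −0.40 and −0.45). Of all genes, 23.3% were higher and 25.9% lower with indisulam in A549, and 21.9% and 24.9% in SUM159. With palbociclib 21.1% and 29.0% of all genes were lower. Over the alternatives the indisulam count of this list in SUM159 ranged from 2 to 4 higher and 0 to 1 lower. Its palbociclib count ranged from 4 to 5 lower in A549 and 4 to 6 in SUM159, and up to 1 gene was called higher with palbociclib in A549. SF1, which recognises the branch point, went from 339 and 328 CPM to 563 and 547 CPM with indisulam in A549 and from 375 and 371 CPM to 497 and 506 CPM in SUM159. The log2 change of SF1 was 0.73 (adjusted p = 2.37e-09) and 0.43 (adjusted p = 2.83e-08). RBM17 fell most with palbociclib, by 0.61 (A549, adjusted p = 4.66e-08) and 0.65 (SUM159, adjusted p = 6.84e-10). PUF60 was the 1 lower gene with indisulam in SUM159 (−0.10, adjusted p = 0.0346), a call lost without any 1 of the 4 untreated and indisulam libraries (−0.12 to −0.09, adjusted p up to 0.17). U2AF1 is uncertain, since a near-identical copy can share its reads. None of these lists was tested as a set.

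The genes whose levels followed RBM39 most closely were searched over the 16 libraries, with log2 CPM centred within each line, among 9653 genes that averaged 5 CPM or more in both lines. They were NEDD4L (Pearson r = 0.995), EYA3 (0.991), MLH3 (0.99), EARS2 (0.99) and CFDP1 (0.989). For RBM23 they were KPNA1 (0.991), EBAG9 (0.986) and SF1 (0.983), and for DCAF15 they were ERF (0.926), DOT1L (0.923) and SCAF1 (0.921). Between the 8 genes themselves, RBM39 and RBM23 had r = 0.937, RBM39 and CUL4B 0.88, RBM39 and DDB1 −0.789, and DDB1 and CUL4A 0.921. DCAF15 had its highest r among them with RBM23, at 0.579. These values describe 16 libraries in 8 groups of 2 that share treatment, scaling and depth, and no p was computed.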

How the data were processed

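Poly(A) RNA of 16 libraries (8 groups of 2) was read as paired 75-base reads. Per the labels and the study's methods, the authors aligned reads to GRCh38 with HISAT2 2.2.1 and deposited HTSeq read counts per gene, not normalized. The annotation release and the strand setting are not given in the sources used here. Rows that name no gene held 13.2% to 16.4% of reads and were left out. Gene names, lengths and coordinates came from GENCODE annotation of GRCh38, which matched 58207 of 58676 identifiers.

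Counts were fitted per line with the edgeR 4.0.16 quasi-likelihood test (R 4.3.3; TMM scaling; filterByExpr, leaving 15744 genes in A549 and 16080 in SUM159), and in all 16 libraries (17764 genes) for differences between lines. P-values were adjusted by Benjamini-Hochberg over all genes and called under 0.05. The SE was the log2 change over the square root of F. CPM used the scaling of each line's fit, a choice made after seeing the data, so that levels match the tests, while RPKM and levels between lines used the shared scaling and MANE Select lengths. The fits were also run on simulated counts in which few genes changed, whereas many were called in these data, and the outcome is not reported here. The floor of 3 counts was 0.0880 to 0.164 CPM and covers counting error only. Duplicates differed by more than sampling noise (chi-square per degree of freedom 1.65 to 10.0). Same-numbered libraries did not deviate together.

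Named were all 8 genes. From the pathway lists, named genes were taken from the largest called rises and falls against untreated cells, among genes averaging 5 CPM or more. Not every gene that met this rule is named. The genes and lists were chosen with earlier results of these data known. Alternatives were DESeq2 1.42.0, other filters, scalings and fits, a replicate block, and leaving out each library.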

Additional observations from a re-analysis of the deposited data

Results flagged for a closer look

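4 differences between the lines in response were called by an interaction term (edgeR, SUM159 minus A549, log2). For CUL4B with palbociclib the difference was 0.18, but it passed in 1 of 13 alternatives and fell to 0.0129 without A549 untreated replicate 1, and CUL4B passed in neither line alone. RBX1 differed by −0.31 with indisulam and by −0.38 with the combination, and CUL4A by −0.19 with the combination. The settings and libraries on which these rest are named with the results.

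Reads in no annotated feature lay outside the comparisons and were above the untreated libraries with indisulam in both lines. The lowest indisulam library held 5.70% in A549, where the highest untreated one held 4.57%, and 5.70% in SUM159, where the highest untreated one held 3.99%. In SUM159 the libraries given palbociclib alone were also above the untreated ones, at 4.96% to 5.45%, and the combination held 5.94% to 6.78%. In A549 palbociclib held 4.17% to 4.71% and the combination 4.83% to 5.66%. What these reads are was not tested.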

How the results depend on the processing

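RBM39 rose with indisulam by 1.04 to 1.08 in A549 and 1.07 to 1.14 in SUM159 over 11 alternatives in each line, leaving out each library included, and passed the threshold in all of them. The counts of the 8 genes called depended on the settings as follows, and the cause was not tested. The share of all genes called under these settings was not computed, so these counts cannot be set beside it. With a log2 change of 0.5 or more in size also required, A549 kept 3 calls for indisulam against palbociclib, 1 for indisulam, 0 for palbociclib, 1 for the combination against indisulam, 2 against palbociclib and 1 against untreated. SUM159 had 2, 1, 0, 0, 1 and 1 in the same order, and the lines differed in 4 genes untreated and in 0 responses to each treatment. DESeq2 called 4 in A549 for indisulam against palbociclib and 4 against untreated, and 0 line differences with indisulam or palbociclib. Without a filter the latter were 0 and 0, and with palbociclib also 0 under the replicate block and under total-count scaling. With at least 10 counts in every library the combination gave 5 line differences. Leaving out 1 library gave 4 to 6 calls for A549 indisulam against palbociclib, 4 to 5 against untreated, and 0 to 1, 0 to 3 and 1 to 6 line differences with indisulam, palbociclib and the combination.

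Values that changed sign were mostly small, but DCAF15 in A549 combination against palbociclib ran from −0.16 to 0.23. Total-count scaling gave 0.0215 for CUL4A and 0.0066 for RBX1 (A549, combination against indisulam), 0.0376 for CUL4B (A549, palbociclib) and 0.0359 for RBX1 (SUM159, combination against palbociclib). The last was 0.0008 with at least 10 counts. DDA1 with palbociclib in A549 was −0.0087 with DESeq2, −0.0183 in the fit of all 16 libraries, −0.0152 in that of both groups alone, and −0.0083 unfiltered. DDB1 between untreated lines was −0.0238 unfiltered. Line differences with palbociclib were −0.018 for RBM39 and −0.0189 for RBM23 with at least 10 counts, and −0.0125 and −0.014 with DESeq2. Leaving out 1 library gave ranges of −0.0824 to 0.0405 (CUL4A) in A549 combination against indisulam, −0.0541 to 0.0063 (CUL4B) and −0.0365 to 0.0296 (DDA1) in A549 palbociclib, −0.16 to 0.23 (DCAF15) in A549 combination against palbociclib, −0.0019 to 0.0847 (DCAF15) in SUM159 indisulam, −0.0248 to 0.15 (DCAF15) and −0.0605 to 0.0372 (RBX1) in SUM159 combination against palbociclib, −0.0482 to 0.0030 (DDB1) in SUM159 indisulam against palbociclib, and −0.10 to 0.10 (RBM39 and RBM23) between lines with palbociclib.

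Same-numbered libraries deviated with correlations of −0.103 to 0.0617, so the numbers did not pair the samples. The replicate block gained DCAF15 in A549 indisulam (0.26, edgeR adjusted p = 0.0484), lost CUL4B between lines with palbociclib (0.18, adjusted p = 0.071) and lost PUF60 in SUM159 indisulam (−0.10, adjusted p = 0.0506). Crossed numbers in SUM159 combination against palbociclib, added after seeing the data, left 6 calls. Depth limited DCAF15 most, at 256 to 841 counts.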
